A study of Mus musculus with 32 samples.

Results

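The B-cell identity genes described here were Ms4a1, Cd79a, Cd79b, Pax5, Cr2, Fcer2a, Fcmr, Spib and Blk, chosen by name and matched to their Ensembl identifiers, which gave 9 of the 32285 genes in the count table. Their expression was measured by bulk RNA sequencing of 32 whole bladders from female C57BL/6 mice, 1 bladder a library. Young mice were 2 months old (n = 6), middle-aged mice 10 months (n = 5) and all old mice 26 months. The untreated old group (n = 6) received no gavage. Old mice in the other groups were gavaged from 21 to 26 months of age, on 3 consecutive days each month, with water (n = 5), with vehicle (n = 4) or with D+Q (n = 6), which is dasatinib at 5 mg/kg/day together with quercetin at 50 mg/kg/day and is a senolytic combination. The vehicle was ethanol (10%), polyethylene glycol 400 (30%) and Phosal 50 PG (60%). Only 1 sex and 1 strain were studied, and a whole bladder mixes urothelium, smooth muscle, stroma and any immune cells present. Bladders are named below by group letter (Y, M, O, W, V and DQ for young, middle-aged, untreated old, water-treated, vehicle-treated and D+Q-treated) and replicate number.

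B cells recognise antigen through a membrane immunoglobulin that signals through the CD79A and CD79B chains, and the Src-family kinase BLK acts just downstream of that receptor. The transcription factor PAX5 holds cells in the B lineage, and SPIB, an Ets-family factor, acts with it in mature B cells. CD20 (Ms4a1), the complement receptor CD21 (Cr2), the low-affinity IgE receptor CD23 (Fcer2a) and the IgM receptor (Fcmr) are surface proteins of mature B cells. Several are also made elsewhere. Cr2 is known from follicular dendritic cells, Spib from plasmacytoid dendritic cells and Blk from gamma-delta T cells.

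Promoter sequence was read for the members in the RefSeq promoter table (GRCm38.p6, the mm10 build). It held 6 of the 9, namely Cd79a, Cr2, Fcer2a, Fcmr, Pax5 and Spib. The part of these sequences in the members' levels was not tested. The 4 stretches shown are those of Cd79a and Spib, which carry a motif match, and of Cr2 and Fcer2a, which carry none. Cr2 and Fcer2a were picked because their levels followed each other more closely than either followed another member. Each is given 5′ to 3′ on the gene's strand and ends at the base before the first annotated transcript start, with motif matches in capitals. Coordinates are chr7:24897247-24897380 on the plus strand for Cd79a, chr7:44532072-44532321 on the minus strand for Spib, chr1:195176720-195176969 on the minus strand for Cr2 and chr8:3694176-3694424 on the minus strand for Fcer2a.
Cd79a: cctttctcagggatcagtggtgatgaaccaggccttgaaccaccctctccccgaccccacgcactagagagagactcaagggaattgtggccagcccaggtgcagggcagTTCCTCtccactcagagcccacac
Spib: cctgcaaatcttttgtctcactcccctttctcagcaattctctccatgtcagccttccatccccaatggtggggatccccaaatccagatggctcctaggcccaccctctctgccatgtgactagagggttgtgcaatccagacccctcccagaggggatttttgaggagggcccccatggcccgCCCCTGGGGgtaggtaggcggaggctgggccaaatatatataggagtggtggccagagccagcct
Cr2: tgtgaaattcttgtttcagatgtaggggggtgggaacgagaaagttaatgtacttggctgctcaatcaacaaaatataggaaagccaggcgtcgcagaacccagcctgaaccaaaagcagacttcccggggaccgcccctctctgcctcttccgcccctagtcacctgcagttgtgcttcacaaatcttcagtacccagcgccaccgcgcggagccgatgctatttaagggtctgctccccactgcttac
Fcer2a: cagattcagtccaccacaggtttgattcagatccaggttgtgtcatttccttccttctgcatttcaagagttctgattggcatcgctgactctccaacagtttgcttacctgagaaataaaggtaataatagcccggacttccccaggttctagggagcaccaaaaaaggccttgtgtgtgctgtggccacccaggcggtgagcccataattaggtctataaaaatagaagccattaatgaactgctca
Matches were sought on both strands in windows of 250 bases before to 50 after each start. The PU box GAGGAA, bound by PU.1 and SPIB, was found in the windows of Cd79a and Fcmr and in 28.3% of all 32851 windows in the table. The EBF core CCCNNGGG, a palindrome, matched Spib at 2 overlapping positions, and 13.7% of all windows held it. The octamer ATGCAAAT was in none of the members' windows and in 1.74% of all windows. The 3 motifs did not overlap each other in the members.

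All 32 libraries carried bladder tissue. Summed smooth muscle markers were 22000 to 32100 CPM (TMM-normalized counts scaled per 1e6) and summed urothelial markers 3510 to 4710 CPM. Library totals were 15088372 to 52650259 counts, so that 3 counts, taken as the floor of detection, equalled 0.0572 to 0.205 CPM. Ms4a1 and Pax5 overlap an annotated gene on the opposite strand, and the strand setting of the authors' counting was not given in the sources used here.

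The levels of these genes were low in young bladders, and near the floor for Ms4a1, Pax5, Fcmr and Fcer2a. Young bladders had 15 to 89 counts of Cd79b, 9 to 53 of Spib and 21 to 25 of Blk. Ms4a1, the CD20 gene (chr19:11249675-11266241, minus strand), was 0 to 0.626 CPM with a median of 0.283 in young bladders, on 0 to 18 counts, and both Y3 and Y4 had a count of 0, which allows up to 3 counts. In middle-aged bladders it was 0.359, 0.444, 1.26, 0.416 and 1.41 CPM in M1 to M5. Young and middle-aged bladders overlapped.

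Untreated old bladders had Ms4a1 at 15.6 to 44.9 CPM (median 20.9). Every one of them was far above every younger bladder. The D+Q-treated bladders ran from 6.34 to 25.3 CPM (median 13.6). Water-treated bladders split widely, with 12.8, 77.8, 5.48, 51.6 and 7.97 CPM in W1 to W5. Vehicle-treated bladders had 7.75, 14.96, 74.1 and 13.5 CPM in V1 to V4. W2, W4 and V3 stood above all other old bladders for Ms4a1, while the other 6 bladders of the water and vehicle groups lay below every untreated old one.

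Cd79a (chr7:24897381-24902197, plus strand), one signaling chain of the receptor, was 0.306 to 0.757 CPM in young bladders (median 0.351). Middle-aged bladders had 0.848, 0.475, 1.70, 0.832 and 1.95 CPM in M1 to M5. Untreated old bladders rose to 15.2 to 44.3 CPM (median 25.3). No untreated old bladder overlapped the younger ones. Water-treated bladders had 21.2, 69.4, 10.9, 49.2 and 14.0 CPM in W1 to W5, vehicle-treated ones 10.3, 16.3, 68.2 and 27.0 CPM in V1 to V4, and D+Q-treated ones 4.44 to 26.4 CPM (median 17.98). The high bladders were again W2, W4 and V3. Its partner Cd79b (chr11:106311341-106314762, minus strand) was 0.696 to 2.73 CPM in young, 1.27 to 2.09 in middle-aged and 10.4 to 34.6 in untreated old bladders.

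The transcription factors followed the receptor chains. Pax5 (chr4:44524757-44710487, minus strand) was 0 to 0.348 CPM in young, 0.228 to 1.14 in middle-aged and 7.05 to 29.3 in untreated old bladders. Spib (chr7:44525993-44532071, minus strand), whose promoter is printed above, was 0.541 to 1.62, 0.815 to 1.23 and 12.6 to 32.6 CPM in the same order. The kinase gene Blk (chr14:63372836-63417037, minus strand) was 0.640 to 1.43, 1.49 to 3.16 and 6.96 to 20.3 CPM. The IgM receptor gene Fcmr (chr1:130865669-130880791, plus strand) was 0 to 0.374, 0.158 to 0.794 and 6.57 to 18.1 CPM. For each of these 4 genes every untreated old bladder was above every younger one. Among all genes tested, 8.49% had every untreated old bladder above every middle-aged one. Against young bladders it was 1131 of 16873 genes.

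Cr2 and Fcer2a behaved differently. Cr2 (chr1:195136811-195176716, minus strand), the CD21 gene, was 0.300 to 0.757 CPM in young bladders, and 0.913, 1.30, 1.09, 0.776 and 0.895 CPM in M1 to M5. Untreated old bladders ran from 0.607 to 7.93 CPM (median 2.08). The lowest of them, O5 and O3, lay below every middle-aged bladder. Water-treated bladders had 4.28, 16.6, 0.956, 5.85 and 0.674 CPM in W1 to W5, vehicle-treated ones 0.458, 3.86, 1.82 and 3.42 CPM in V1 to V4, and D+Q-treated ones 0.697 to 6.03 CPM (median 1.67). V3, among the 3 highest bladders for Ms4a1, was only at 1.82 CPM for Cr2.

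Fcer2a (chr8:3681737-3694175, minus strand), the CD23 gene, was 0.174 to 0.360 CPM in young bladders on 5 to 8 counts, and 0.196, 0.190, 0.328, 0.166 and 0.407 CPM in M1 to M5. Untreated old bladders ran from 0.291 to 7.73 CPM (median 0.992), and the D+Q-treated ones from 0.152 to 5.84 (median 1.57). Water-treated bladders had 3.44, 3.55, 0.113, 1.25 and 0.337 CPM in W1 to W5, and vehicle-treated ones 0.265, 2.79, 3.16 and 1.48 CPM in V1 to V4. The highest old bladders for Fcer2a were O2 and DQ4. W2, the highest for Ms4a1, was the third at 3.55 CPM. The plot of CPM by group for the 9 genes shows these patterns.

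**Figure D1:**
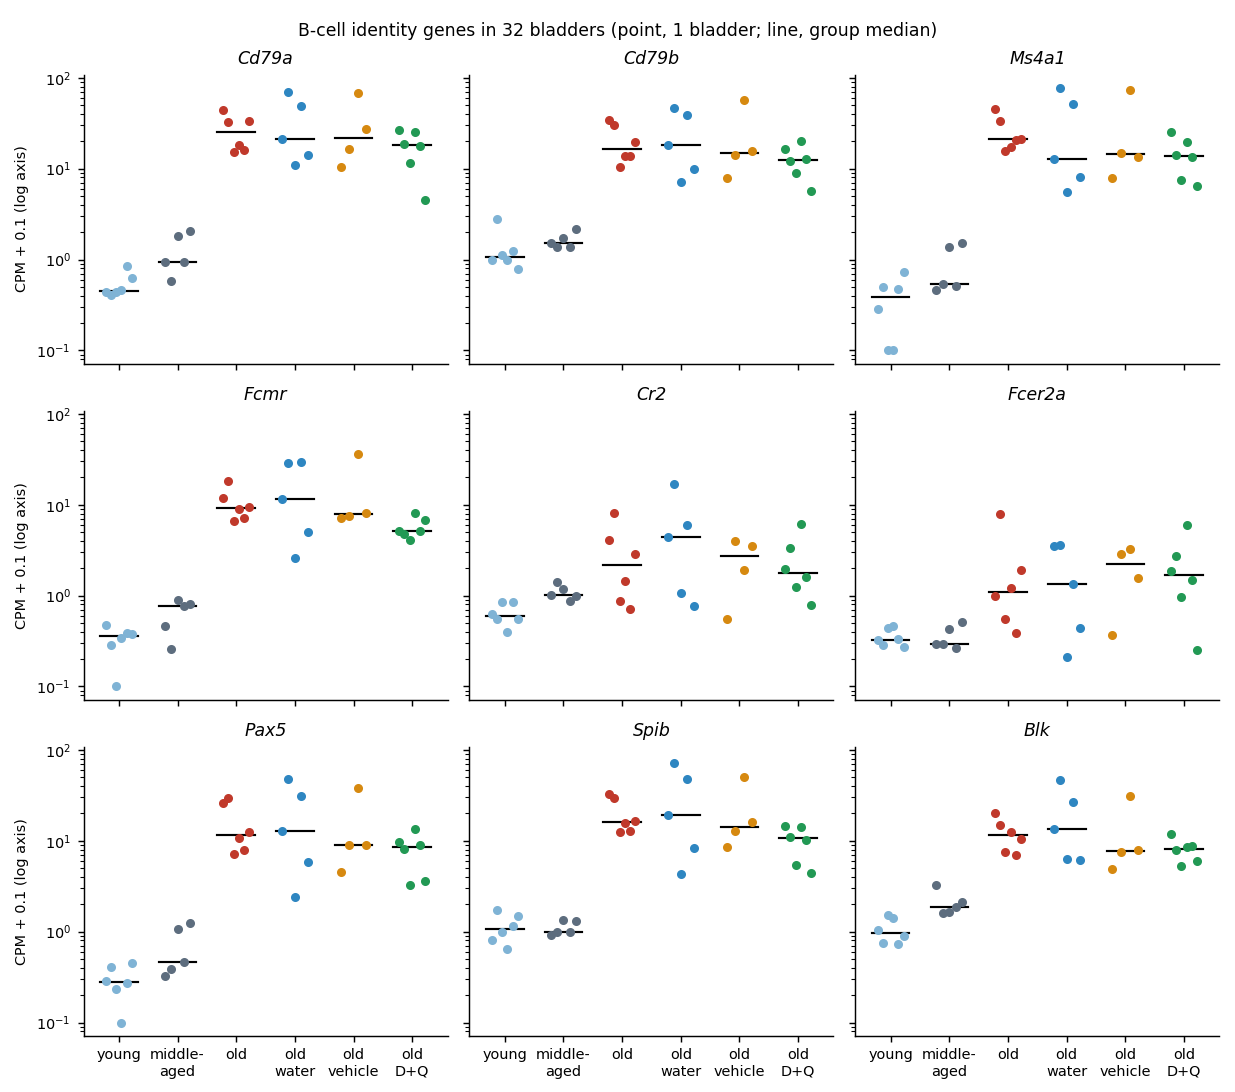
CPM plus 0.1 (log axis) of each B-cell identity gene in 32 bladders, by group, with 1 point a bladder and a line at the group median. All members but Cr2 and Fcer2a are separated between untreated old and younger bladders. Pax5 is among them and passed the filter on low counts only through the old bladders. Of all genes tested, 8.49% had every untreated old bladder above every middle-aged one. Against young bladders it was 1131 of 16873 genes. For those 7 members W2, W4 and V3 lie above the other bladders of their groups.

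Per length of transcript, in TPM, the members' mean levels in untreated old bladders (± SD, n = 6) were in the order Cd79a 62.3 ± 27.6, Cd79b 48.9 ± 24.4, Spib 23.9 ± 10.98, Fcmr 20.5 ± 8.997, Blk 15.3 ± 6.56, Ms4a1 14.2 ± 6.49, Pax5 6.07 ± 3.89, Fcer2a 2.30 ± 3.29 and Cr2 1.24 ± 1.22. Neighbouring genes in that order differed by less than 1 SD of the higher gene, with 2 exceptions, Cd79b over Spib and Ms4a1 over Pax5.

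Between young and middle-aged bladders the question was whether these genes differed before old age, and each comparison below is edgeR's quasi-likelihood test with Benjamini-Hochberg adjustment over all genes tested. Of 7 members with enough counts to be tested, 3 were higher in middle-aged bladders, Cd79a by 1.37 ± 0.38 on the log2 scale (SE, adjusted p = 0.0358), Cr2 by 0.88 ± 0.24 (adjusted p = 0.0348) and Blk by 1.12 ± 0.27 (adjusted p = 0.0200). Among all genes tested, 4.96% were higher. In RNA of whole bladders, more B cells and more RNA of these genes per cell cannot be told apart, nor can fewer cells and less RNA per cell. Middle-aged and young bladders did not overlap for Cr2 and Blk, and 3.37% of all genes tested had every middle-aged bladder above every young one. Ms4a1 differed by 1.37 ± 0.57 (adjusted p = 0.141) and Fcmr by 1.16 ± 0.45 (adjusted p = 0.115). Cd79b differed by 0.30 ± 0.32 and Spib by -0.06 ± 0.26. Pax5 and Fcer2a had too few counts to be tested. In a fit of all 6 groups none of the 3 calls was kept (adjusted p = 0.239 for Cd79a, 0.486 for Cr2 and 0.163 for Blk), and with the replicate block Cr2 and Blk were lost (adjusted p = 0.107 and 0.0734). Leaving out single bladders left 0 to 3 members called. Cd79a passed no longer without Y1, Y2, Y3, Y6, M1, M3 or M5 (lowest log2 value 1.11 and highest 1.47), Cr2 without Y1, Y2, Y6, M1, M2, M3 or M5 (0.769 to 0.918) and Blk without Y6, M1 or M5 (0.892 to 1.12).

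Between middle-aged and untreated old bladders, 6 of the 7 members that had enough counts without any old bladder were higher, where 13.0% of all genes tested were. The median log2 fold change of these 7 was 4.23, against -0.00471 over all genes. Every untreated old bladder was above every middle-aged one for 6 of them, all but Cr2, as for 8.49% of all genes. Pax5 and Fcer2a passed the filter on low counts only through the old bladders, where they were high, so they had to differ and are given as values outside these counts. 

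The surface marker Ms4a1 was higher in untreated old bladders by 5.00 ± 0.42 on the log2 scale (SE, adjusted p = 7.66e-06), a ratio of means of 32.9. Cd79a was higher by 4.49 ± 0.40 (adjusted p = 1.25e-05) and Spib by 4.29 ± 0.32 (adjusted p = 3.71e-06). Pax5 had a fitted value of 4.67 ± 0.54, given without a p because it passed the filter only through the old bladders. Fcmr, Cd79b and Blk rose by 4.23 ± 0.37, 3.72 ± 0.34 and 2.60 ± 0.30. Fcer2a had a fitted value of 2.96 ± 0.84, given without a p for the same reason as Pax5. Cr2 differed by 1.54 ± 0.58 and did not pass (adjusted p = 0.0734), but did without O3 (adjusted p = 0.0397) or without O5 (adjusted p = 0.0288), the bladders with low Cr2. Against young bladders the 7 members other than Pax5 and Fcer2a were higher in untreated old ones, by 6.35 ± 0.44 for Ms4a1 down to 2.41 ± 0.60 for Cr2, where 12.6% of all genes tested were higher. That comparison shares the untreated old bladders with the one above. The gavaged old groups were also above middle-aged bladders, with 7 of the same 7 members higher in water-treated bladders (8.02% of all genes), 6 in vehicle-treated ones (3.02%) and 6 in D+Q-treated ones (7.58%), Cr2 being the member not called in the last 2. These 3 comparisons share the middle-aged group. In the water-treated comparison Cr2 lost its call without any 1 of M1 to M5, W1, W2 or W4 (log2 values 1.56 to 2.63). In the vehicle-treated one Blk lost its call without M2, M3, M4 or M5 (2.63 to 2.71), while Cr2 gained a call without V1 (1.60). In the D+Q-treated one Cr2 gained a call without DQ6 (1.47).

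**Figure D2:**
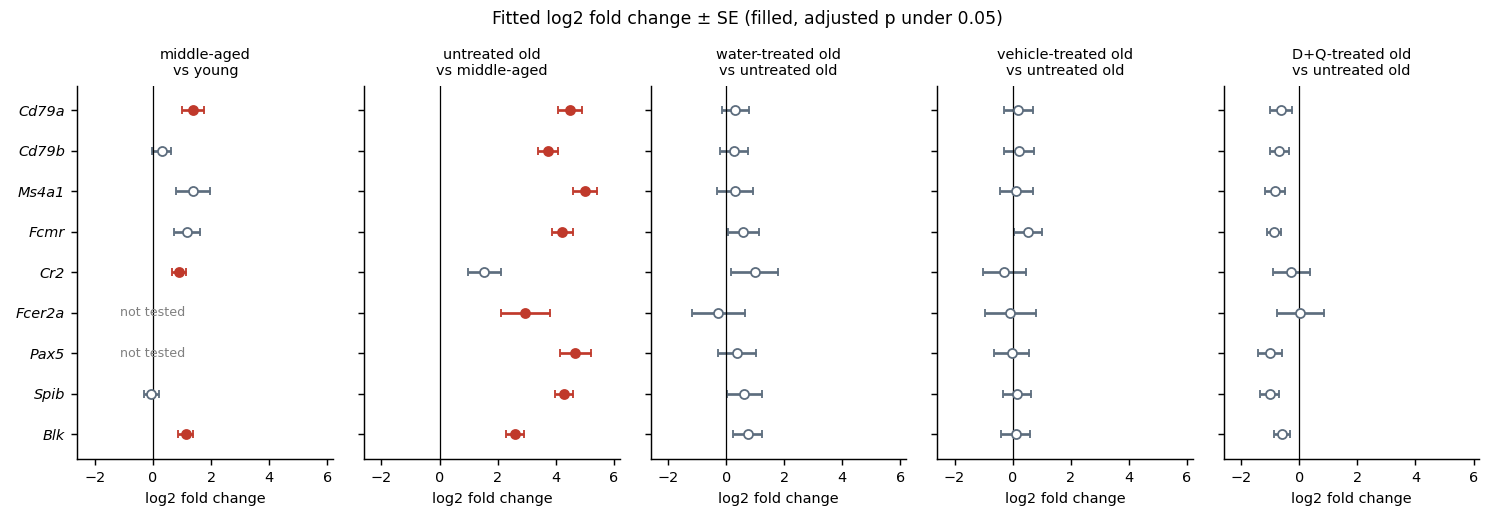
Fitted log2 fold change with its standard error for each member in 5 comparisons, filled where the adjusted p was under 0.05. In untreated old against middle-aged bladders values ran from 1.54 to 5.00 and all but Cr2 are filled. Of the filled ones, Pax5 and Fcer2a passed the filter on low counts only through the old bladders. In the 3 comparisons among old groups values ran from -1.02 to 0.98 and none passed.

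Between old groups the question was whether water, vehicle or D+Q gavage changed these genes. With D+Q set against no treatment, none of the 9 members was called by edgeR, where 0% of all 17037 genes tested were, and none by DESeq2. At an unadjusted p under 0.05, 5 of the 9 had lower values in D+Q-treated bladders, Ms4a1, Pax5, Fcmr, Spib and Blk, against 6.67% of all genes lower. The smallest adjusted p was 0.269, of Fcmr. Fcmr differed by -0.87 ± 0.24 on the log2 scale, with values of 4.02 to 8.06 CPM after D+Q and 6.57 to 18.1 CPM untreated, and Spib by -1.02 ± 0.33. Ms4a1 differed by -0.84 ± 0.34 (adjusted p = 0.356) and Pax5 by -1.004 ± 0.424. Cd79a and Cd79b differed by -0.63 ± 0.38 and -0.69 ± 0.33, Blk by -0.59 ± 0.26. Cr2 and Fcer2a differed by -0.27 ± 0.63 and 0.04 ± 0.80, respectively. The groups overlapped for all 9. T-cell markers had lower values in the same comparison, 8 of 8 with a negative difference (median -0.77) and 7 of 8 at an unadjusted p under 0.05, with none called (smallest adjusted p = 0.264). All 8 were also negative in water-treated (median -0.485) and in vehicle-treated (median -0.674) against untreated old bladders. With D+Q set against water, 5 were negative and 3 positive (median -0.127), and against vehicle 7 and 1 (median -0.222). The summed level of the T-cell markers was 24.7 to 46.7 CPM in D+Q-treated and 39.3 to 92.4 CPM in untreated old bladders. Their part in the members' difference was not tested.

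The same was asked of each gavage control. In water-treated bladders none of the 9 members was called by edgeR or DESeq2 (1.0% of all genes were), and none had an unadjusted p under 0.05. The log2 differences ran from -0.27 ± 0.90 for Fcer2a to 0.98 ± 0.82 for Cr2. In vehicle-treated bladders none was called by edgeR or DESeq2 (0% of all genes), none had an unadjusted p under 0.05, and differences ran from -0.29 ± 0.74 for Cr2 to 0.51 ± 0.48 for Fcmr. D+Q-treated bladders set against vehicle-treated ones had no member called by edgeR or DESeq2 (0% of all genes) and 2 with an unadjusted p under 0.05, Fcmr at -1.39 ± 0.45 and Spib at -1.17 ± 0.49, where 1.47% of all genes were lower at that threshold. Against water-treated ones no member was called by edgeR or DESeq2 (0% of all genes), and 4 had an unadjusted p under 0.05, Fcmr at -1.47 ± 0.52, Spib at -1.64 ± 0.61, Blk at -1.33 ± 0.47 and Pax5 at -1.37 ± 0.63, where 3.19% of all genes were lower. The comparisons with untreated old bladders share that group.

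The controls' own spread was wide. Ms4a1 in vehicle-treated bladders differed from untreated old ones by 0.12 ± 0.57, but the value ran from -1.08 to 0.43 when single bladders were left out. The coefficient of variation of Ms4a1 was 103% in water-treated, 113% in vehicle-treated, 44.5% in untreated old and 50.5% in D+Q-treated bladders.

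Whether the members kept the same proportion to each other was asked with the counts of each per 100 counts of Ms4a1. Across the 21 old bladders, Cd79a ran from 70.1 to 200, Cd79b from 60.1 to 143, Pax5 from 37.6 to 98.3, Spib from 56.6 to 149, Blk from 33.6 to 113 and Fcmr from 19.8 to 107. Their highest value was 2.38 to 5.40 times their lowest. Cr2 ran from 2.46 to 33.5 and Fcer2a from 1.41 to 29.7, 13.6 and 21.1 times their lowest. The mean log2 ratio of each of the 8 members to Ms4a1 was compared between each gavaged group and untreated old bladders with two-sided exact permutation tests, 24 in all, and none passed after adjustment (smallest adjusted p = 0.321). The smallest exact permutation p these groups allow is 0.00216 for D+Q-treated, 0.00433 for water-treated and 0.00952 for vehicle-treated bladders, so a single ratio could not reach an adjusted p below 0.0519, 0.104 or 0.229, and these tests do not show that proportions were kept. Before adjustment, Spib and Blk in water-treated bladders had the smallest p (exact permutation p = 0.0303). For Fcer2a the mean log2 ratio was -3.12 ± 1.03 (SD, n = 6) in D+Q-treated and -4.26 ± 1.38 (n = 6) in untreated old bladders, a difference of 1.14 (exact permutation p = 0.139).

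**Figure D3:**
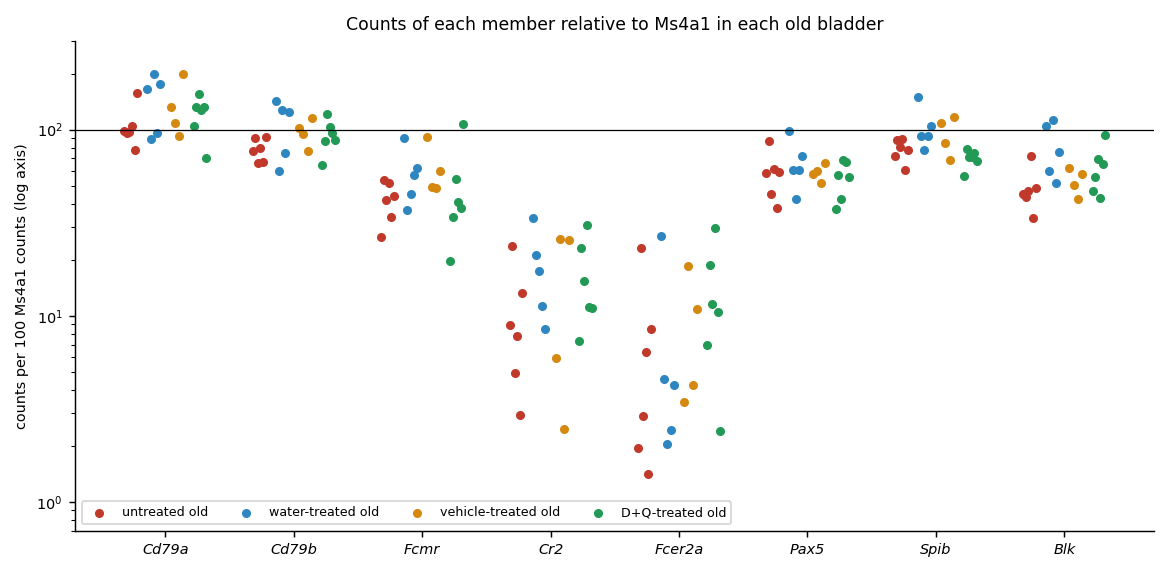
Counts of each member per 100 counts of Ms4a1 in 21 old bladders (log axis), colored by group, with 1 point a bladder and a line at 100. The points for Cr2 and Fcer2a spread over a wider range (2.46 to 33.5 and 1.41 to 29.7) than those of the other 6 members.

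With the group mean subtracted from log2(CPM + 0.1), bladders high for Ms4a1 were high for the other members within their groups. Over the 21 old bladders, Pearson's r with Ms4a1 was 0.972 for Spib, 0.964 for Cd79b, 0.953 for Pax5 and for Blk, 0.927 for Cd79a and 0.868 for Fcmr (permutation p of 1e-05, the smallest 100000 permutations can give, except 0.00038 for Fcmr). Spearman's rho was 0.956, 0.949, 0.951, 0.903, 0.936 and 0.752 in that order (the same permutation p, except 0.00168 for Fcmr). Cr2 had r = 0.698 and rho = 0.736 (permutation p = 0.00378 and 0.00134), and Fcer2a r = 0.653 and rho = 0.696 (permutation p = 0.00567 and 0.00251). All 8 relations passed at an adjusted p of at most 0.0106 over 15 relations, and with W2 and V3, the farthest from the median of Ms4a1, left out, r was 0.615 to 0.959.

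Between the members themselves, Cr2 and Fcer2a were closest to each other, at r = 0.879, and had r of 0.624 to 0.797 (median 0.746) with the rest. The other 7 members had r of 0.737 to 0.984 (median 0.931) among themselves. These are descriptions over 21 bladders whose values share the library, so they share its depth and scaling.

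**Figure D4:**
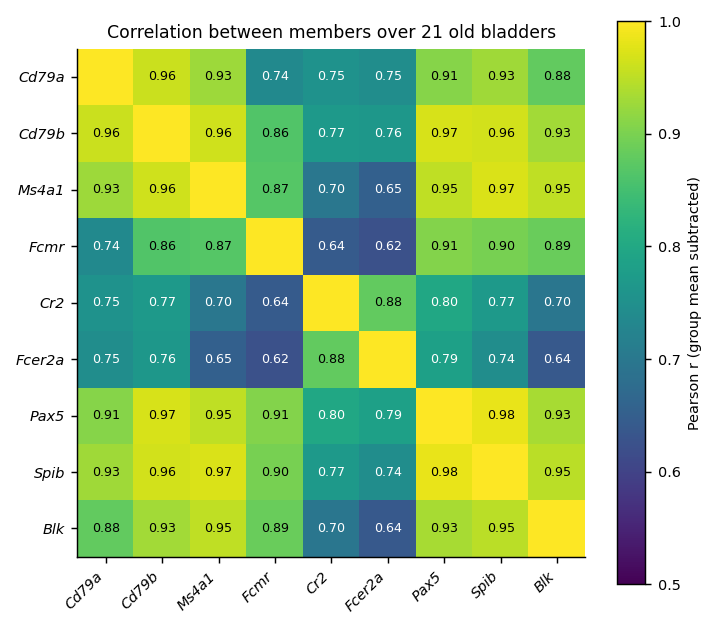
Pearson r between each pair of B-cell identity genes over 21 old bladders, from log2(CPM + 0.1) with the group mean subtracted. The pair Cr2 and Fcer2a has 0.88, above the 0.62 to 0.80 of either with another member.

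Of genes outside the 9, those with a pattern most like the members' mean over the 21 old bladders, among 17109 genes, included Fcrl1 (r = 0.978), H2-Ob (0.969), Tnfrsf13c (0.969), Chst3 (0.968), H2-DMb2 (0.955), Bank1 (0.955), Cd37 (0.954), Ltb (0.952) and Siglecg (0.944). Fcrl1 encodes an Fc receptor-like protein of B cells, and its mean level was 4.73 CPM in untreated old, 0.299 in middle-aged and 0.369 in young bladders. Tnfrsf13c encodes the BAFF receptor, and H2-Ob and H2-DMb2 act in antigen loading of MHC class II. Chst3, a carbohydrate sulfotransferase gene, rose from 2.93 CPM in middle-aged to 10.7 in untreated old bladders.

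Lists of related genes described the other cells that moved with the members between middle-aged and untreated old bladders. Of all 17156 genes tested, 2231 (13.0%) were higher and 1879 lower. Some listed genes passed the filter on low counts only through the old bladders, so the list counts include genes that had to differ. Without old bladders, 13 of the 14 other B-cell surface genes and 5 of the 6 age-associated B-cell genes had enough counts. All 14 other B-cell surface genes were higher (median log2 fold change 3.80), with Ighm, the IgM heavy chain, at 4.69 ± 0.67 and Cxcr5, the follicle homing receptor, at 4.65 ± 0.38. Of 10 B-lineage transcription factors 6 were higher (median 0.579), Pou2af1 at 4.89 ± 0.46 and Pou2f2 at 1.80 ± 0.21 leading. Ebf1 and Bcl11a, expressed beyond B cells, were at 0.10 ± 0.06 and 0.26 ± 0.18. Germinal center genes were higher in 4 of 6 tested (median 0.359), with Mef2b at 1.92 ± 0.41 and Gcsam at 0.89 ± 0.17. Age-associated B-cell genes were higher in 4 of 6 and lower in 1, Fcrl5 at 5.34 ± 0.62 and Cxcr3 at 2.01 ± 0.20 leading. Their summed level overlapped between ages, at 193 to 268 CPM in young, 216 to 229 in middle-aged and 219 to 230 in untreated old bladders.

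Markers of other cells also moved. Without old bladders, 7 of the 8 T-cell markers and 5 of the 9 follicular dendritic cell and lymphoid stroma markers had enough counts to be tested. Glycam1 had 22 counts in M5 and at most 1 in any other middle-aged bladder. All 8 T-cell markers were higher (median 2.76), with Cd8a at 3.43 ± 0.40 and Cd8b1 at 3.42 ± 0.35, and their summed level was 10.3 to 13.5 CPM in middle-aged and 39.3 to 92.4 CPM in untreated old bladders. Plasma cell markers were higher in 7 of 8 (median 1.68), Mzb1 at 4.56 ± 0.56 and Jchain at 4.18 ± 0.65. Follicular dendritic cell and lymphoid stroma markers were higher in 4 and lower in 1 of 6 tested, with Glycam1 at 4.76 ± 1.12 and the B-cell chemokine Cxcl13 at 2.34 ± 0.32, and Ccl21a had a count of 0 in all middle-aged and untreated old bladders. Summed, that list was 320 to 349 CPM in young, 310 to 335 CPM in middle-aged and 337 to 403 CPM in untreated old bladders. Macrophage markers were higher in 5 of 6 (median 0.567), Fcgr1 and C1qa leading. Conventional dendritic cell markers were higher in 3 of 6 (median 0.447), Ccr7 and Xcr1 leading, and plasmacytoid dendritic cell markers in 2 of 5 tested (median 0.210). Of the gamma-delta T-cell markers 2 of 5 tested were higher (median 0.171), Blk, itself a member, and Il23r. No adipocyte marker passed (median 0.664). Urothelial markers were lower in 3 of 6 (median -0.153), Upk2 and Upk3a leading, and smooth muscle markers in 2 of 6 (median -0.0949), Smtn and Myh11. The part of these cells in the members' change was not tested. Of the plasmacytoid dendritic cell list, Lair1 and Ccr9 were higher, by 1.38 ± 0.20 and 1.06 ± 0.28, while Siglech differed by -0.21 ± 0.20. Siglech, which marks plasmacytoid dendritic cells, had 5.13 ± 0.963 CPM (SD, n = 5) in middle-aged and 4.44 ± 1.35 (n = 6) in untreated old bladders, and Trdc, of gamma-delta T cells, 2.46 ± 1.35 and 2.76 ± 0.766. The plasmacytoid dendritic cell list summed to 88.5 to 110 CPM in middle-aged and 96.5 to 123 in untreated old bladders. The gamma-delta T-cell list, which holds Blk, summed to 67.8 to 73.2 and 72.6 to 95.3 CPM.

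Within the old groups, single markers of other cells followed Ms4a1 to different degrees. Ms4a1 and Cd3e of T cells had r = 0.578 and rho = 0.464 (permutation p = 0.0196 and 0.0566, adjusted p = 0.0267 and 0.0654), falling to r = 0.249 without W2 and V3. Cxcl13 had r = 0.712 and rho = 0.647 (permutation p = 0.00673 and 0.0120, adjusted p = 0.0112 and 0.0194), and r = 0.539 without W2 and V3. Jchain had r = 0.401 and rho = 0.427 (permutation p = 0.165 and 0.0475, adjusted p = 0.190 and 0.0594). Upk1b, of urothelium, and Acta2, of smooth muscle, had r = -0.570 and -0.556 and rho = -0.514 and -0.600 (permutation p of r 0.0156 and 0.0335, of rho 0.0455 and 0.0129, adjusted p of r 0.0233 and 0.0418, adjusted p of rho 0.0594 and 0.0194). Without W2 and V3 they were -0.453 and -0.313 and no longer passed. With single bladders left out, Cd3e no longer passed without W2, W3, V1, V2, V3 or DQ6 (r of 0.415 to 0.575), Upk1b without W2, W3, DQ1 or DQ6 (-0.453 to -0.544) and Acta2 without O2, O4, W1, W2, W5, V1, V3, V4, DQ3, DQ4 or DQ6 (-0.424 to -0.571). Adgre1, of macrophages, and Adipoq, of adipocytes, had r = 0.220 and 0.206, rho = 0.318 and 0.170 (permutation p of r 0.385 and 0.444, of rho 0.173 and 0.519, adjusted p of r 0.412 and 0.444, adjusted p of rho 0.186 and 0.519).

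The 3 bladders highest for the members differed in other cells. In W4 the 9 members summed to 282 CPM, against 409 in W2 and 361 in V3, while the T-cell markers of W4 summed to 29.2 CPM, against 63.4 in W2 and 78.6 in V3. O3 had the highest T-cell sum, 92.4 CPM, with a members' sum of 75.9 CPM, the lowest of the untreated old bladders. In the sum of the lymphoid stroma list W2, V3 and W4 were the highest of the 21, at 461, 445 and 417 CPM. Young bladders, low for the members, already had 320 to 349 CPM for that list, so most of the sum did not depend on the members' level. Cxcl13 made up 43.5, 43.4 and 36.6 CPM of it in W2, V3 and W4. Glycam1, of high endothelial venules, was 12.7 CPM in W2 and 12.4 CPM in V3 but 0.544 CPM in W4. The lymph node chemokine genes Ccl21a and Ccl19 were near 0 throughout, with at most 1 count for Ccl21a and at most 17 counts for Ccl19 in any bladder. The part of lymphoid stroma in the members' level was not tested.

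**Figure D5:**
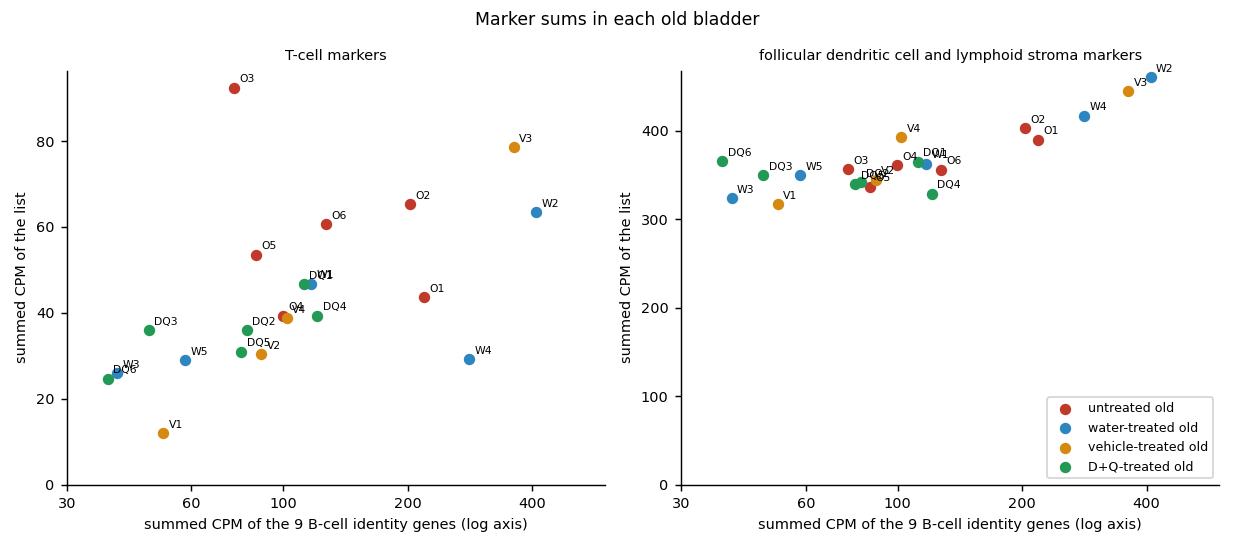
Summed CPM of T-cell markers (left) and of follicular dendritic cell and lymphoid stroma markers (right) against the summed CPM of the 9 B-cell identity genes (log axis) in 21 old bladders, colored by group. W4 has a high members' sum (282 CPM) with a T-cell marker sum of 29.2 CPM, the median of the water-treated group. W2, V3 and W4 have the highest stroma sums (417 to 461 CPM), where young bladders, not shown, had 320 to 349 CPM.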

How the data were processed

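Total RNA of 32 whole bladders was made into TruSeq Stranded Total RNA libraries and sequenced paired-end. Counts per gene were deposited by the authors, who aligned reads to mm10 with STAR 2.7.3 and counted them with Subread featureCounts, without normalization. The gene length that the authors deposited beside the counts, an other unit in bases, was used for TPM. A deposited table of normalized expression was not used. The members and gene lists, and the promoters' motifs, were chosen with earlier results of these data known.

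Groups followed the GEO labels, and replicate numbers the sample titles. The 11 comparisons of 2 groups used edgeR 4.0.16 in R 4.3.3 (TMM, filterByExpr, quasi-likelihood test, Benjamini-Hochberg adjusted p under 0.05), each fitted on its own 2 groups and over all genes. CPM and TPM were computed here, and CPM used TMM factors over all 32 bladders. Ratios were compared with exact permutation tests (0.1 CPM added), and correlations with 100000 permutations within groups, in Python 3.11.15 with scipy 1.17.1. All 9 members are named, and of each list the 2 called genes with the largest change between middle-aged and untreated old bladders. Ebf1, Bcl11a, Siglech and Trdc are named outside that rule. The genes most like the members are the 10 with the highest r among genes with at least 10 counts in 11 or more old bladders, of which 9 are named and the other is not reported here. Ighd and the single chemokine and stroma genes given beside individual bladders were chosen after their values were seen. No batch is given in the labels, so none was tested. Alternatives were RLE factors, DESeq2 1.42.0, no filter, a likelihood ratio test, a fit of all 6 groups, a replicate block and leaving out each bladder. The SE of a log2 fold change was taken from the quasi-likelihood F statistic and includes the spread between bladders. The floor of 3 counts covers counting error only. The code was tested on simulated data.

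Replicate numbers did not pair the samples. Over 73 pairs of bladders with the same number in 2 groups, deviations from the group mean had r of -0.358 to 0.213 (median 0.00991), with 11 pairs above 0.1. The column names of the count table number 6 bladders differently. By those numbers 72 pairs had r of -0.341 to 0.252 (median 0.0261), 12 of them above 0.1, and no pair of groups had every r above 0.1. No block was fitted on them.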

Additional observations from a re-analysis of the deposited data

Results flagged for a closer look

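In each group of 4 to 6 bladders, the highest and lowest value of each member was set against its nearest neighbour and the group's range by Dixon's 95% limit. Of 54 groups of values 7 exceeded it, where chance gives about 1 in 20. Of these, 5 were V3, with Ms4a1 at 74.1 CPM (next highest 14.96), Cd79b at 57.0 CPM (15.7), Pax5 at 38.4 CPM (8.99), Fcmr at 36.0 CPM (8.09) and Blk at 31.3 CPM (7.80). The others were Fcer2a in O2, at 7.73 CPM (1.81), and Cd79b in the young bladder Y2, at 2.73 CPM (1.14). The members rise and fall together within a bladder, so the values of V3 are not independent of each other.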

How the results depend on the processing

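Several members had under 30 counts in young and middle-aged bladders, where counting error is largest. Of the numbers of members called in the 11 comparisons, that of middle-aged against young bladders moved by over 1.5 times, from 3 to 0 in a fit of all 6 groups and to 1 with the replicate block, and 0 to 3 when single bladders were left out. The cause was not tested. The numbers of this paragraph count all 9 members, with Pax5 and Fcer2a, which entered the comparisons of old with younger bladders only through the old ones. In the other comparisons the replicate block, whose numbers pair no samples, gave 7 members for untreated old against middle-aged, 7 for water-treated and 6 for vehicle-treated against middle-aged bladders, and single bladders left out gave 7 to 9, 7 to 9 and 6 to 9. DESeq2 called 7 in the last. Of the 15 relations with Ms4a1, 9 to 12 passed when single bladders were left out and 9 without W2 and V3. No comparison between old groups had a member called in any setting.

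No direction among called members turned. With the replicate block, the log2 difference turned sign for Spib in middle-aged against young bladders (0.10), for Ms4a1 (-0.337) and Pax5 (-0.0952) in water-treated against untreated old bladders, and, with vehicle set against no treatment, for Ms4a1 (-0.528), Cd79a (-0.111), Cd79b (-0.217), Fcmr (-0.0151), Spib (-0.330) and Blk (-0.485). The r of Adipoq with Ms4a1 turned to -0.0701 without W2 and V3. When single bladders were left out, values crossed 0 in these ranges. For middle-aged against young, Spib -0.181 to 0.12. For water-treated old against untreated old, Ms4a1 -0.374 to 0.575, Cd79a -0.149 to 0.547, Cd79b -0.132 to 0.496, Pax5 -0.249 to 0.656 and Fcer2a -0.771 to 0.877. For vehicle-treated old against untreated old, Ms4a1 -1.08 to 0.427, Cd79a -0.58 to 0.486, Cd79b -0.696 to 0.514, Pax5 -1.06 to 0.281, Cr2 -0.646 to 0.311, Fcer2a -0.438 to 1.07, Fcmr -0.457 to 0.747, Spib -0.69 to 0.421 and Blk -0.842 to 0.383. For D+Q-treated old against untreated old, Cr2 -0.799 to 0.334 and Fcer2a -0.616 to 1.18. For D+Q-treated old against vehicle-treated old, Ms4a1 -1.27 to 0.249, Cd79b -1.21 to 0.0119, Pax5 -1.29 to 0.0591, Cr2 -0.51 to 0.374, Fcer2a -0.537 to 0.481 and Blk -0.982 to 0.251. For D+Q-treated old against water-treated old, Fcer2a -0.347 to 0.809. For the ratio to Ms4a1, water-treated old against untreated old, Fcer2a -0.394 to 0.593. For the ratio to Ms4a1, vehicle-treated old against untreated old, Pax5 -0.0458 to 0.191 and Cr2 -0.172 to 0.942. For the ratio to Ms4a1, D+Q-treated old against untreated old, Pax5 -0.178 to 0.0583 and Fcmr -0.19 to 0.291.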

Other observations

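The IgM heavy chain gene Ighm and the joining chain gene Jchain, which plasma cells make in bulk, had r of 0.483 and 0.457 with the members' mean over the 21 old bladders. The other plasma cell markers ran from -0.327 (Sdc1) to 0.644 (Irf4). Fcrl1, at 0.978, was among the genes picked for the highest r. The values that follow were chosen after they were seen. In untreated old bladders Ighm was 1632 to 11000 CPM, the highest in O6, which had Ms4a1 at 21.2 CPM, while O1 had the highest Ms4a1 (44.9 CPM) with Ighm at 5258 CPM. V1 had Ighm at 117 CPM and Jchain at 5.52 CPM, against 3372 to 6193 CPM and 239 to 400 CPM in V2 to V4. Its Ms4a1 was 7.75 CPM, above every middle-aged bladder. The D+Q-treated bladder DQ6, lowest of its group for Ms4a1, had Ighm at 989 CPM, and W4, with Ms4a1 at 51.6 CPM, had 1636 CPM. D+Q-treated bladders differed from untreated old ones in Ighm by -0.18 on the log2 scale (adjusted p = 0.889) and in Jchain by -0.14 (adjusted p = 0.914), edgeR's quasi-likelihood test.

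Ighd, the IgD heavy chain of naive mature B cells, was highest in O2 (47.1 CPM) among untreated old bladders, where the other 5 had 2.86 to 11.8 CPM. O2 was also the highest untreated old bladder for Fcer2a (7.73 CPM) and Cr2 (7.93 CPM). Among D+Q-treated bladders DQ4 was the highest for all 3 genes, with Ighd at 27.2 CPM, Fcer2a at 5.84 CPM and Cr2 at 6.03 CPM. W4 had Ighd at 36.0 CPM with Fcer2a at 1.25 CPM.

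In middle-aged bladders, Ighm was 245, 224 and 242 CPM in M1, M3 and M5 and 41.1 and 64.0 CPM in M2 and M4, and young bladders had 19.7 to 54.8 CPM. Ighm was higher in middle-aged than in young bladders by 2.48 ± 0.45 (SE, adjusted p = 0.00570), and Jchain by 3.48 ± 0.55 (adjusted p = 0.00311), with edgeR's quasi-likelihood test. M3 and M5 also had the highest middle-aged Ms4a1 (1.26 and 1.41 CPM) and Cd79a (1.70 and 1.95 CPM), and M1, with Ms4a1 at 0.359 CPM, did not.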
